A study of Homo sapiens with 4 samples.

Results

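Gene deserts are long stretches of the genome that hold no protein-coding gene, and here a desert was a gap of 1 Mb or more between neighbouring protein-coding genes of the RefSeq annotation of GRCh38.p14. Members were the H3K4bhb peaks on chromosomes 1 to 22 whose summit, the highest point of the peak, lay in such a gap. The gap holding the centromere and the stretches beyond the outermost genes of each chromosome were left out. The 279 gaps held 493 Mb, or 18.4% of the 2670 Mb counted, and their median length was 1.54 Mb. In all, 3919 of 16639 autosomal peaks were members, 2140 of 10760 with H2O2 + BHBNa and 1779 of 5879 with H2O2. The 2 lists held 11510 and 6251 peaks over all chromosomes.

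H3K4bhb is histone H3 carrying a beta-hydroxybutyryl group on lysine 4, and it was mapped by chromatin immunoprecipitation and sequencing in HK-2 cells, a human cell line made from the tubule lining of the kidney. One group received hydrogen peroxide after pretreatment with sodium beta-hydroxybutyrate (H2O2 + BHBNa), and the other received hydrogen peroxide alone (H2O2), so both carried the oxidant and no group without it was analysed here. The same line gave 1 library from the immunoprecipitation (IP) and 1 control for either treatment, and the labels called the control IgG in the titles and input in the library names. A peak list gives no expression, so the identity of the cells could not be checked against marker genes. With 1 IP library a treatment no difference between treatments has a replicate check and no test was possible. The intervals below are 95% intervals for counting error only.

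Beta-hydroxybutyrylation is a lysine modification drawn from the ketone body beta-hydroxybutyrate, and its best known histone form, on another lysine of H3, marks promoters of active genes. Gene deserts are often rich in A and T, replicate late and lie in compact chromatin. Some nevertheless hold distant enhancers of the developmental genes at their borders, and many carry long noncoding RNA (lncRNA) genes.

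The starts of lncRNA genes were the places in deserts where a peak could be read at the level of bases, from the RefSeq promoter windows of GRCh38.p14 (250 bases before to 50 after a start). Of 1724 such windows in deserts, belonging to 1516 lncRNA genes, a peak of the H2O2 + BHBNa list overlapped 2 (0.116%) and a peak of the H2O2 list overlapped 1 (0.058%). All 3 are shown because they are the only desert windows that a peak reached. Each is written 5′ to 3′ on the plus strand, with the bases inside the peak in capitals.
LINC01412: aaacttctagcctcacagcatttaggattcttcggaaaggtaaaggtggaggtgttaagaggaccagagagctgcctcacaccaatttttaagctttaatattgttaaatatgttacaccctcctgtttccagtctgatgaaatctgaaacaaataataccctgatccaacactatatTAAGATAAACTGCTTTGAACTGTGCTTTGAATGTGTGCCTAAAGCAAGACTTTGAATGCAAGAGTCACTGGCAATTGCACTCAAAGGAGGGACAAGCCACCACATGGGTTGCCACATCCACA
LOC105375488: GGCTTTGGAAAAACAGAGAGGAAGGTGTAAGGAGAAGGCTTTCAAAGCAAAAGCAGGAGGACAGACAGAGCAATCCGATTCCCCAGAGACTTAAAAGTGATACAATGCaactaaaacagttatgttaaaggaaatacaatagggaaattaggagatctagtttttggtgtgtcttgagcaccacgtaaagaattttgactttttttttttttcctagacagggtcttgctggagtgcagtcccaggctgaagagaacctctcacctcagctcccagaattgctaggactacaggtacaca
LOC105371302: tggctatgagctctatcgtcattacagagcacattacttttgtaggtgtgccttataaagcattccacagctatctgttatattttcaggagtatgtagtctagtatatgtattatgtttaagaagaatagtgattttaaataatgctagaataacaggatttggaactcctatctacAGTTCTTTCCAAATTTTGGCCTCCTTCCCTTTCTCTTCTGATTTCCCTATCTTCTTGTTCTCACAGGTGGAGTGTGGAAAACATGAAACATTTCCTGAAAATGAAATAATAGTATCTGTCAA
The LINC01412 window lies at chr2:144521618-144521917 in the gap between ZEB2 and ACVR2A, and 122 of its 300 bases were inside an H2O2 + BHBNa peak. The LOC105375488 window lies at chr7:126233320-126233619 between POT1 and GRM8, with 108 bases inside an H2O2 + BHBNa peak. The LOC105371302 window lies at chr16:61365254-61365553 between GOT2 and CDH8, with 122 bases inside an H2O2 peak. GC content was 41%, 42.3% and 34.7% in that order, and the windows held 1, 2 and 1 CpG dinucleotides. None of the 3 held the peak's summit. The 2 H2O2 + BHBNa peaks were weak, with a fold enrichment of 2.61 and 2.58, 2 IP fragments each and q = 0.326, and the H2O2 peak had a fold of 4.57, 6 fragments and q = 0.0596. Outside deserts, 25 of 10842 lncRNA windows (0.231%) were overlapped by an H2O2 + BHBNa peak and 9 (0.083%) by an H2O2 peak. The median GC content of the windows was 41% in deserts and 52% in the rest.

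Deserts held a larger share of the H2O2 peaks than of the H2O2 + BHBNa peaks. They took 19.9% of the autosomal H2O2 + BHBNa peaks (95% Wilson interval 19.1 to 20.7%) and 30.3% of the H2O2 peaks (29.1 to 31.4%), against 18.4% of the sequence. In the H2O2 + BHBNa list the density was 4.34 peaks per Mb in deserts (exact Poisson interval 4.16 to 4.53) and 3.89 in the rest (3.81 to 3.98), a ratio of 1.12 (1.06 to 1.17). In the H2O2 list it was 3.61 peaks per Mb in deserts (3.45 to 3.78) and 1.86 in the rest (1.81 to 1.92), a ratio of 1.94 (1.83 to 2.05). The excess in deserts was thus slight with BHBNa and nearly a doubling without it. Neither excess was shown under every rule. The H2O2 + BHBNa ratio was 0.963 among peaks with a q of at most 0.05, with an interval (0.846 to 1.1) that held 1. Where genes of any kind, noncoding ones included, closed a gap, the gaps held only 0.149% of H2O2 + BHBNa and 0.204% of H2O2 peaks. The ratio was then 0.741 (0.454 to 1.21) with H2O2 + BHBNa and 1.01 (0.575 to 1.78) with H2O2. At so few peaks neither list was shown to be denser, or less dense, in gaps free of any gene.

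Seen as a count between treatments, deserts held 1.2 H2O2 + BHBNa peaks for each H2O2 peak (1.13 to 1.28), and the rest of the sequence held 2.09 (2.01 to 2.17). The H2O2 + BHBNa list was called down to 2 IP fragments and the H2O2 list only to 3. The ratio was therefore also taken above a floor of 3 fragments. That cut removed no H2O2 peak, so it could only lower the ratio. Nor is it an equal floor, as the lowest background was 0.102 fragments with H2O2 + BHBNa and 0.274 with H2O2. Among peaks of 3 or more fragments the ratio was 0.643 in deserts (1144 and 1779 peaks) and 0.976 in the rest (3959 and 4058 peaks). Among peaks with a q of at most 0.05 it was 2.15 in deserts (281 and 131 peaks) and 4.76 in the rest (1290 and 271 peaks). The desert ratio was 0.576 times that of the rest over all peaks, 0.659 times over peaks of 3 or more fragments and 0.451 times over peaks that met the q threshold. The lower ratio in deserts was therefore present in each of these sets, while the side of 1 on which the ratio fell depended on the cut.

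The ratio fell step by step with the length of the gap. Gaps under 0.1 Mb held 3.49 H2O2 + BHBNa and 1.22 H2O2 peaks per Mb, a ratio of 2.87. Gaps of 0.1 to 0.5 Mb gave 4.1 and 1.87 (ratio 2.19), and gaps of 0.5 to 1 Mb, just short of a desert, gave 4.55 and 2.67 (ratio 1.71). The 203 deserts of 1 to 2 Mb gave 4.37 and 3.36 (ratio 1.3, 1.2 to 1.42), and the 76 deserts of 2 Mb or more gave 4.31 and 3.96 (ratio 1.09, 0.99 to 1.2). The density with H2O2 alone climbed through every one of these steps, while the density with H2O2 + BHBNa was nearly level from 0.5 Mb up. Gene bodies, at 3.78 and 1.86 peaks per Mb (ratio 2.04), lay near the gaps of 0.1 to 0.5 Mb.

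**Figure D1:**
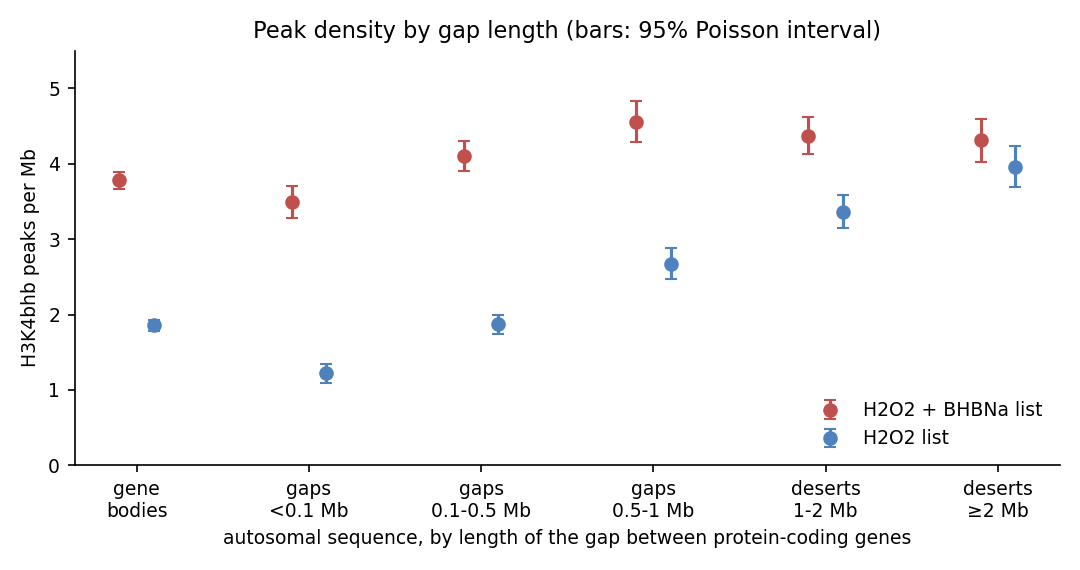
H3K4bhb peaks per Mb (vertical axis) in gene bodies and in gaps of rising length between protein-coding genes (horizontal axis), with H2O2 + BHBNa in red, H2O2 in blue and 95% exact Poisson intervals as bars. H2O2 points climb from 1.22 in the shortest gaps to 3.96 in the longest deserts, where they come close to the H2O2 + BHBNa point at 4.31.

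The same order was seen on every chromosome that has a desert. All autosomes but chromosome 19 had one, and on 21 of 21 the desert ratio of H2O2 + BHBNa to H2O2 peaks was below the ratio in the rest of the chromosome. Desert ratios ran between 0.969 on chromosome 14, with 93 and 96 peaks, and 2.86 on chromosome 22, with 20 and 7 peaks. Desert density exceeded that of the rest on 16 of 21 chromosomes in the H2O2 + BHBNa list and on 21 of 21 in the H2O2 list. The 16 include near ties on chromosome 8 (4.05 against 4.04 per Mb) and chromosome 12 (4.56 against 4.56). Chromosome 13, of which deserts make up 33.1%, held 123 and 125 desert peaks, while chromosome 20 had the densest deserts with H2O2 + BHBNa, 6.18 peaks per Mb against 2.89 with H2O2.

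**Figure D2:**
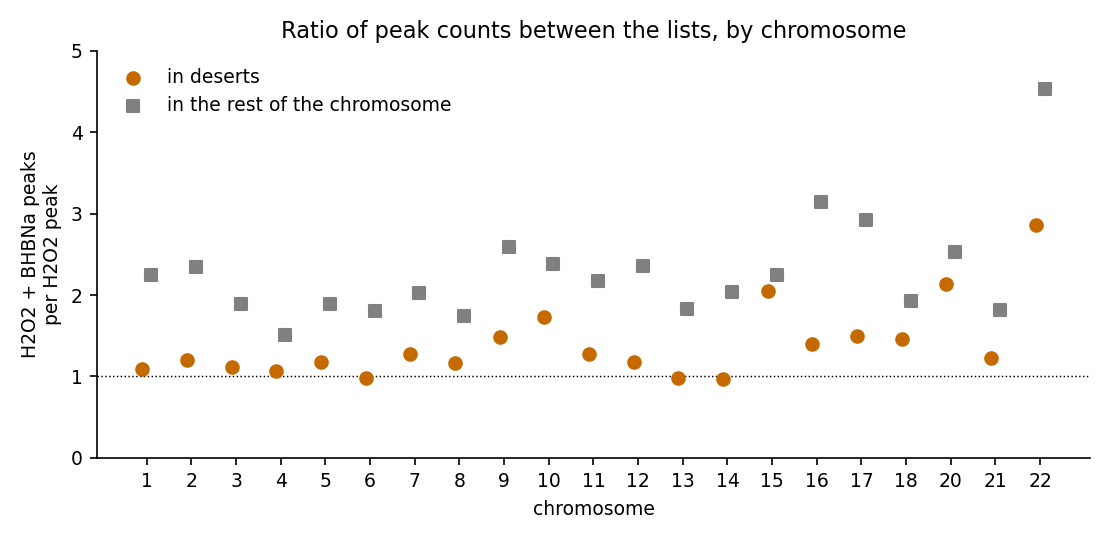
Number of H2O2 + BHBNa peaks for each H2O2 peak (vertical axis) by chromosome (horizontal axis), in deserts (orange circles) and in the rest of the chromosome (grey squares), with equal counts at the dotted line. The circle lies below the square on all 21 chromosomes shown.

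Within deserts, distance from the nearest gene gave a gradient in the H2O2 list. In the first 100 kb from a gene, H2O2 + BHBNa peaks stood at 4.1 per Mb (3.59 to 4.67) and H2O2 peaks at 2.74 (2.32 to 3.21). Beyond 1000 kb from any gene they stood at 4.06 (3.55 to 4.62) and 4.31 (3.78 to 4.89). In between, the H2O2 list gave 3.33, 3.52 and 3.9 per Mb at 100 to 250, 250 to 500 and 500 to 1000 kb, while the H2O2 + BHBNa list gave 4.41, 4.53 and 4.33. H2O2 peaks thus became denser with distance from genes, and H2O2 + BHBNa peaks showed no such trend. Sequence beyond 1000 kb lies only in gaps of more than 2 Mb. Gaps of 2 Mb or more held 3.96 H2O2 peaks per Mb, against 3.36 in gaps of 1 to 2 Mb. Distance was not taken within gaps of like length, so it cannot be told apart from gap length here. The median desert peak lay 445 kb from the nearest gene with H2O2 + BHBNa and 485 kb with H2O2.

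**Figure D3:**
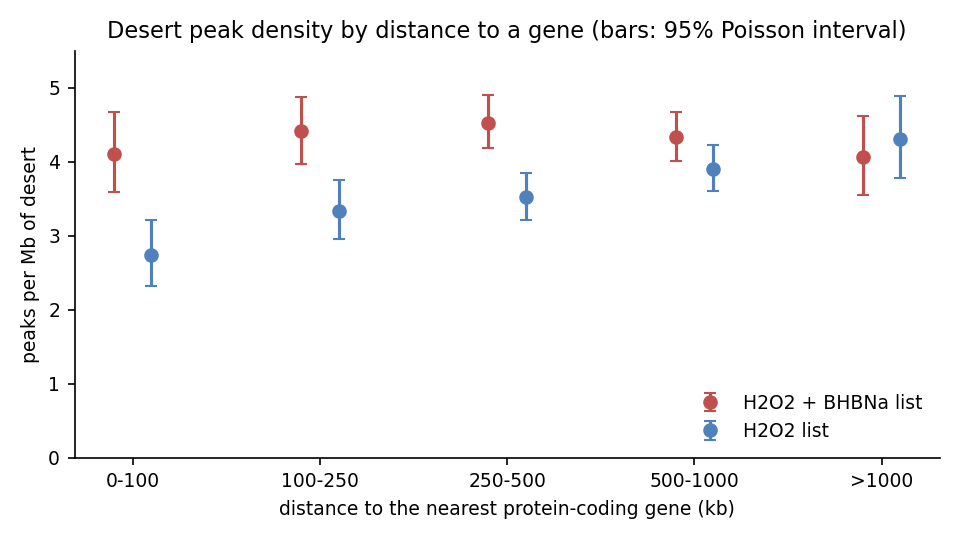
Desert peaks per Mb (vertical axis) against distance to the nearest protein-coding gene in kb (horizontal axis), with H2O2 + BHBNa in red, H2O2 in blue and 95% exact Poisson intervals as bars. H2O2 points climb from 2.74 next to genes to 4.31 beyond 1000 kb, and H2O2 + BHBNa points stay between 4.06 and 4.53.

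Base composition moved with the ratio. No genome sequence was used, so composition was taken from the GC content of the promoter windows inside each gap, for the 227 gaps with at least 3 windows. In 3 groups of these gaps of nearly equal number, from lowest to highest GC, the H2O2 + BHBNa density was 4.28, 4.73 and 4.2 peaks per Mb and the H2O2 density was 4.14, 3.68 and 2.73. The ratio was 1.04 (0.932 to 1.15), 1.28 (1.14 to 1.44) and 1.54 (1.34 to 1.77). H2O2 peaks were thus densest in the gaps of lowest GC, and the part that sequence composition has in the treatment ratio was not tested. The groups also differed in length, with 164, 137 and 117 Mb in 76, 76 and 75 gaps. GC was not compared within gaps of like length, so it cannot be told apart from gap length here.

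Most desert peaks were weak. The fold enrichment at the summit, which is the authors' value for each peak, had a desert median of 2.98 with H2O2 + BHBNa and 3.55 with H2O2, and a median in the rest of 2.72 and 3.45. Back-calculated from fold and p, the desert summit held a median of 3 IP fragments with H2O2 + BHBNa and 5 with H2O2, against 2 and 4 in the rest. Median width was 325 bp and 298 bp in deserts and 323 bp and 296 bp in the rest. In the H2O2 + BHBNa list 996 desert peaks (46.5%) rested on exactly 2 fragments, against 4518 (53.3%) in the rest. The typical desert peak thus rested on a few fragments, and the desert summits with the most held 13 with H2O2 + BHBNa and 15 with H2O2.

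Few of them passed a threshold on the false discovery rate. A q of at most 0.05 was met by 281 desert peaks with H2O2 + BHBNa (13.1%, 11.8 to 14.6%) and by 131 with H2O2 (7.36%, 6.24 to 8.67%). The background over all autosomal peaks of each list was 15.1% and 7.08%, and in the rest of the sequence the shares were 15.2% and 6.68%. Desert peaks met the threshold about as often as other peaks in the H2O2 list and slightly less often by share in the H2O2 + BHBNa list. The desert peaks nearest the threshold had q = 0.0488 and 0.0504 with H2O2 + BHBNa, and q = 0.0493 and 0.0508 with H2O2.

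The background estimated from the control differed between deserts and the rest, and between the lists. Its desert median at the summit was 0.171 fragments with H2O2 + BHBNa and 0.558 with H2O2, against 0.149 and 0.459 in the rest. Summits within 5% of the lowest background of the list, 0.102 and 0.274 fragments, made up 10% and 5.28% of desert peaks and 23.1% and 11.7% of the others. Desert summits thus sat less often on the lowest background. Grouped by background as a multiple of that lowest value, the desert share was 9.66% with H2O2 + BHBNa and 16.3% with H2O2 at the lowest value, 30.4% and 37.8% at 3 to 5 times it, and 19.9% and 31.3% at 5 times and above. The H2O2 share was higher in each of the 6 groups, and at the lowest background the treatment ratio was 2.29 in deserts (1.79 to 2.91) and 4.13 in the rest (3.73 to 4.56). The part of the control's background in the desert share of either list was not tested.

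The number of fragments separated the lists more sharply. Of summits with 3 fragments, 21.3% of the H2O2 + BHBNa ones (19.9 to 22.6%) and 22% of the H2O2 ones (19.7 to 24.3%) lay in deserts. At 4 fragments the shares were 26% (23.6 to 28.7%) and 27.5% (25.5 to 29.6%), so at these counts the intervals of the lists overlapped. At 5 fragments they were 17.6% (13.9 to 22.1%) and 34.3% (31.8 to 36.8%), at 6 fragments 23.4% (16.4 to 32.2%) and 36.8% (33.4 to 40.3%), and at 7 or more 18.8% (12.6 to 27%) and 38.2% (34.5 to 42.1%). The desert share of H2O2 summits thus rose with the number of fragments. The intervals of the H2O2 + BHBNa summits with 5 or more fragments all held the 18.4% of sequence. Fragment number is not enrichment, and the highest H2O2 fold, 11.9, and the most fragments, 107, were found in the rest. A q of at most 0.01 was met by 1.97% of H2O2 desert peaks and 2.41% in the rest. A fragment is not the same step above background in both lists, and the depth of the libraries was not given in the sources used here.

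**Figure D4:**
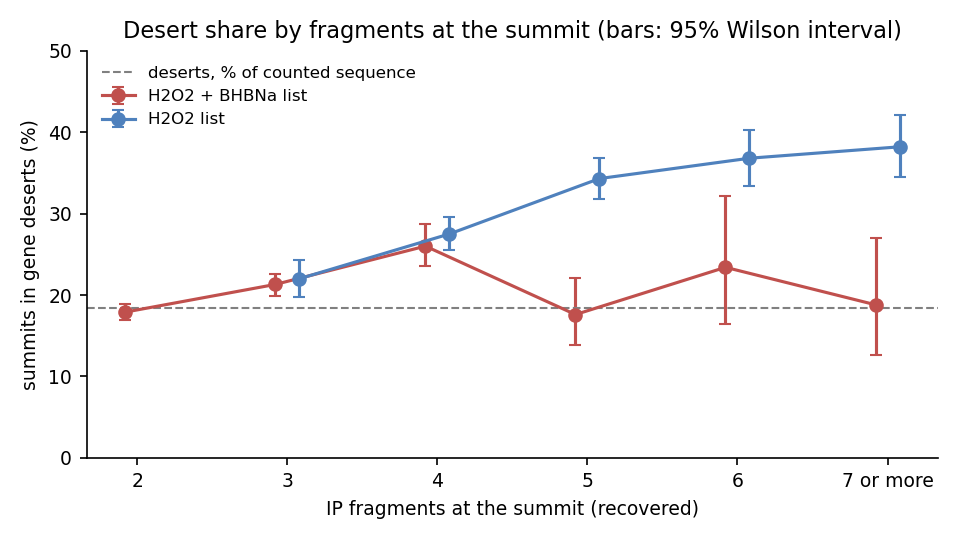
Percent of summits in gene deserts (vertical axis) by the number of IP fragments at the summit (horizontal axis), with H2O2 + BHBNa in red, H2O2 in blue, 95% Wilson intervals as bars and the 18.4% of sequence as a dashed line. The lists lie together at 3 and 4 fragments and apart from 5 fragments up, where H2O2 reaches 38.2%.

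Desert peaks of one treatment were seldom peaks of the other. A shared base with a peak of the other list was found for 11 desert peaks of each list, 0.514% of the H2O2 + BHBNa members and 0.618% of the H2O2 members. The background over all autosomal peaks was 0.632% and 1.17%, and in the rest of the sequence 47 peaks of each list (0.554% and 1.16%) overlapped. With H2O2 + BHBNa the desert share was near that background, and with H2O2 it was below that background.

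The 11 shared places lay in gaps with varied flanking genes. The pair with the highest product of folds lay in the 1.35 Mb gap between IGFBP3, a binding protein of insulin-like growth factors, and TNS3, a focal adhesion protein. There the H2O2 + BHBNa peak at chr7:47111851-47112237 had a fold of 3.87 (q = 0.0746) and the H2O2 peak at chr7:47111738-47112212 a fold of 5.48 (q = 0.00403). Between SORCS1, a sorting receptor, and XPNPEP1, an aminopeptidase, the peaks at chr10:108173909-108174277 and chr10:108173728-108174210 had folds of 5.15 with H2O2 + BHBNa (q = 0.00322) and 3.65 with H2O2 (q = 0.289). A pair 130 kb from TFAP2A, a transcription factor of epithelial and neural crest development, had folds of 3.62 (q = 0.0484) and 2.85 (q = 0.532). In no pair did both peaks meet q of at most 0.05, and in 4 pairs 1 of them did. The remaining pairs included the gaps KCNJ2 to SOX9, GATA3 to CELF2, FAT1 to ZFP42, GNPDA2 to GABRG1 and NRG3 to GHITM. SOX9 and GATA3 are transcription factors with long known enhancers at a distance, but neither was the gene nearest the pair in its gap. The pair in the SOX9 gap lay 679 kb from KCNJ2. Its folds were 3.19 with H2O2 + BHBNa (q = 0.311) and 3.52 with H2O2 (q = 0.364). The pair in the GATA3 gap lay 486 kb from CELF2. Its folds were 2.54 with H2O2 + BHBNa (q = 0.326, 2 fragments) and 3.83 with H2O2 (q = 0.187). Whether either pair lies at an enhancer was not tested.

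A few desert peaks stood well above the rest in the H2O2 + BHBNa list. The highest fold, 10.3 (q = 1.53e-12, 12 fragments), was at chr2:194754172-194754466 within the overlapping lncRNA genes LOC105376755 and LINC01790, in the 3.42 Mb gap between TMEFF2 and SLC39A10. The next, with a fold of 9.96 (q = 8.78e-12, 13 fragments), lay at chr1:199950442-199950918, 76.9 kb from NR5A2, a nuclear receptor of liver, pancreas and early embryo. A peak at chr14:85847140-85847538 had a fold of 9.4 (q = 2.59e-11) and lay 193 kb from FLRT2, a cell adhesion and guidance molecule. A peak at chr5:88954012-88954472 with a fold of 6.86 (q = 2.36e-06) lay within MEF2C-AS1, 50.2 kb from MEF2C, a transcription factor of muscle and neurons. These 4 and the others among the 8 highest folds lay in 8 different gaps, and none of them overlapped an H2O2 peak. Only 0.514% of all H2O2 + BHBNa desert peaks did, so this does not set the highest folds apart. Folds of 7.98, 7.26 and 6.93 were found at chr2:183774668-183775110 (NUP35 to ZNF804A), chr2:220546225-220546720 (SLC4A3 to EPHA4) and chr11:24158789-24159058 (CCDC179 to LUZP2). Peaks on chromosome 8 among the highest folds are not given by position here.

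The H2O2 list had a lower maximum fold in deserts, though not in the rest (11.9 against 8.47 with H2O2 + BHBNa). Its highest desert fold was 7.21 (q = 1.12e-06, 12 fragments) at chr4:59437256-59437620, 1762 kb from the nearest protein-coding gene in the gap after IGFBP7, another binding protein of insulin-like growth factors. A second peak of that gap, at chr4:61181965-61182438, had a fold of 6.17 (q = 0.000327). The peak at chr3:116675745-116676220 had a fold of 7.06 (q = 4.69e-06) and lay 230 kb from LSAMP, a neuronal adhesion molecule. Peaks at chr11:98858619-98859081 (JRKL to CNTN5) and chr13:47403295-47403619 (HTR2A to SUCLA2) had folds of 6.52 and 6.47. SUCLA2 encodes a subunit of succinyl-CoA synthetase in the citric acid cycle, and the peak lay 505 kb from HTR2A, the nearer gene. Folds of 6.37 and 6.3 were found at chr3:20580313-20580572 (SGO1 to ZNF385D) and chr18:72162324-72162579 (SOCS6 to CBLN2). None of the 8 highest overlapped an H2O2 + BHBNa peak, and only 0.618% of all H2O2 desert peaks did.

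Peaks were spread over nearly all deserts. At least 1 peak of each list fell in 264 of the 279 gaps, with a median of 7 per gap with H2O2 + BHBNa and 6 with H2O2. More H2O2 + BHBNa than H2O2 peaks were found in 159 gaps, equal numbers in 28 and fewer in 92. The density in a gap had a median of 4.25 per Mb with H2O2 + BHBNa (interquartile range 3 to 5.7) and 3.36 with H2O2 (2.13 to 4.77). Over the gaps the densities of the lists had a Spearman rho of 0.11, and 0.052 over the 273 gaps with a peak, so a gap dense in one list was not generally dense in the other. In gaps of 1 to 2 Mb the variance of the counts was 1.68 times their mean with H2O2 + BHBNa and 2.05 times with H2O2.

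**Figure D5:**
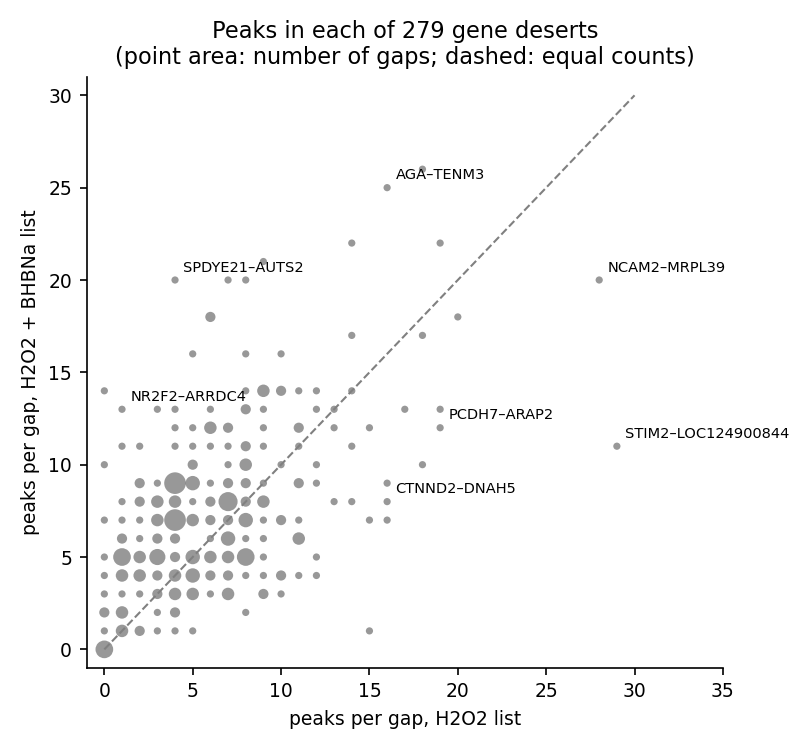
Peaks in each of the 279 deserts, H2O2 + BHBNa on the vertical axis and H2O2 on the horizontal axis, with point area giving the number of gaps at the same position and equal counts on the dashed line. Of the gaps, 159 lie above the line and 92 below, and the labelled gaps are among those named in the text.

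The longest deserts went both ways. The longest, 4.86 Mb between PCDH7, a protocadherin, and ARAP2, a regulator of small GTPases (chr4:31146801-36005403), held 12 H2O2 + BHBNa and 19 H2O2 peaks, where the mean desert density of each list gives 21.1 and 17.5. The 4.04 Mb gap between NCAM2, a neural adhesion molecule, and MRPL39, a mitochondrial ribosomal protein, held 20 and 28 peaks, against 17.6 and 14.6. The gaps AGA to TENM3 and IGFBP7 to LOC124900173 instead held 25 and 16 and 22 and 14 peaks. Of the 8 longest gaps, 5 held fewer H2O2 + BHBNa than H2O2 peaks, namely the first 2 named here and C4orf33 to PCDH10 (18 and 20), NUDT12 to EFNA5 (13 and 17) and CTNNA2 to SUCLG1 (17 and 18).

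Single gaps differed more. Between NR2F2, a nuclear receptor of mesoderm and vessel development, and ARRDC4 (chr15:96340264-97960702) there were 13 H2O2 + BHBNa peaks and 1 H2O2 peak, where the means give 7.04 and 5.85. Between SPDYE21 and AUTS2, a regulator of neuronal development, there were 20 and 4 (chr7:67289006-69598474), and between PCDH17 and DIAPH3 16 and 5. The opposite was seen between STIM2, a calcium sensor of the endoplasmic reticulum, and LOC124900844 (chr4:27025382-30716630), with 11 and 29 peaks where the means give 16 and 13.3. CTNND2 to DNAH5 held 8 and 16 peaks and TMTC2 to SLC6A15 held 4 and 12. These gaps were named as the densest in one list among those of 1.5 Mb or more, so their excess in that list follows from the choice.

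Empty deserts were few. There were 6 gaps, together 8.31 Mb, with no peak in either list, 3 of them on chromosome 9, and among them LOC107987004 to LOC107987067 carried 33 pseudogenes, against a median of 5 per gap. The gap RPIA to LOC124905368 on chromosome 2 and LOC102723475 to LOC101927345 on chromosome 21 were empty over 1.61 and 1.53 Mb. The 16 deserts within 5 Mb of a centromere held 67 H2O2 + BHBNa and 66 H2O2 peaks, or 2.48 and 2.44 per Mb. How many reads could be placed in such stretches was not analysed here.

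Noncoding genes inside deserts held summits close to, or below, their share of the sequence. lncRNA genes covered 25.5% of desert sequence and held 25.4% of the H2O2 + BHBNa summits (23.6 to 27.3%) and 25.7% of the H2O2 summits (23.7 to 27.8%). Pseudogenes covered 0.835% and held 8 H2O2 + BHBNa summits (0.374%) and 9 H2O2 summits (0.506%). A summit lay in 584 of the 2485 lncRNA genes, in 379 with H2O2 + BHBNa, in 332 with H2O2 and in 127 with both. LOC105376214, between KLF4 and ACTL7B, held 7 H2O2 + BHBNa summits and no H2O2 summit, where its length gives 1.74 and 1.45 at the desert means, and DISC1FP1 held 7 and 2. Of 77 microRNA hairpins in deserts, 3 had an H2O2 + BHBNa summit within 10 kb (MIR3144, MIR1261 and MIR4303) and 3 an H2O2 summit (MIR5702, MIR4465 and MIR6130). Of these 6 peaks only that near MIR4303 had a q of at most 0.05 (fold 4.86, q = 0.00453, H2O2 + BHBNa, 9.56 kb away). No count expected from the desert densities was taken for hairpins, so whether peaks gather near them was not tested.

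Grouped by the genes at their borders, deserts gave ratios whose counting intervals overlapped. The 29 gaps next to a developmental transcription factor, 47.5 Mb in all, held 4.93 H2O2 + BHBNa peaks per Mb (4.32 to 5.6) and 3.48 H2O2 peaks per Mb (2.97 to 4.05), a ratio of 1.42 (1.16 to 1.73). All 279 gaps gave 4.34 and 3.61, a ratio of 1.2. The 64 gaps next to a gene of cell adhesion or axon guidance, 146 Mb in all, gave 4.24 and 3.91 per Mb (ratio 1.09, 0.969 to 1.22), and the 20 next to an ion channel or transmitter receptor gave 4.33 and 4.4 (ratio 0.986, 0.779 to 1.25). The 9 gaps next to a gene of a large family by symbol, mostly genes named ZNF, gave 4.35 and 3.35 per Mb (ratio 1.3, 0.887 to 1.9). The intervals of all lists overlapped that of all gaps, 1.13 to 1.28, so no list was set apart at this depth. Among the transcription factor gaps, ZEB2 to ACVR2A held 20 and 8 peaks and KCNJ2 to SOX9 held 8 and 6. ZEB2 is a repressor of epithelial genes and SOX9 drives cartilage and testis formation.

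Of the 279 deserts, 5 bordered a gene of a chosen list of 42 kidney genes. Most of these gaps were also among those next to a developmental transcription factor. The 5 such gaps held 34 H2O2 + BHBNa and 35 H2O2 peaks, 3.96 and 4.08 per Mb (ratio 0.971, 0.606 to 1.56). ZIC1 to AGTR1, beside the angiotensin II receptor gene, held 9 and 5 peaks, and IRX1 to ADAMTS16, beside a homeobox factor, held 6 and 1. GATA3 to CELF2 held 11 and 14, LOC124901178 to CDH6 5 and 9, and HNF4G to ZFHX4 3 and 6. The gap ADGRA3 to PPARGC1A, which borders the coactivator of mitochondrial biogenesis and was chosen after its values were seen, held 4 H2O2 + BHBNa peaks and 1 H2O2 peak (3.13 and 0.784 per Mb, with intervals of 0.854 to 8.03 and 0.0198 to 4.37). At these counts a difference between the treatments in a single kidney gap was not detectable.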

How the data were processed

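The deposited peak lists, 1 per treatment, came from the authors' MACS2 2.2.7.1 calls, after fastp 0.20.1 and Bowtie2 2.4.2, per the submitters' processing notes, which name GRCh38. Each peak carries a deposited score, a fold enrichment (a ratio of IP to control at the summit) and −log10 p and −log10 q values. The lowest −log10 p was 3 in both deposited lists. Depth per library was not given in the sources used here.

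Summits were placed in gaps of 1 Mb or more between merged protein-coding spans of the RefSeq table of GRCh38.p14 (18973 autosomal genes, with 153 rows on scaffolds left out). Centromere positions, used to leave out 18 gaps, were written from general knowledge of the build's chromosome bands and not from a supplied file. Fragments and control background at the summit were recovered from fold and p under a Poisson model with a pseudocount of 1, for 100% of the H2O2 + BHBNa and 99.95% of the H2O2 peaks. Shares have Wilson and densities exact Poisson intervals (scipy 1.17.1, pandas 2.3.3, Python 3.11.15). The placement was checked on simulated data.

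Gaps named were the 8 longest, per list the 6 densest of 1.5 Mb or more, and empty ones. Peaks named were the 8 highest folds per list and the shared pairs. Some named by this rule are not reported here. Items outside that rule are illustrations chosen after their values were seen. The members and gene lists were chosen with earlier results of these data known, and the GC grouping was added after seeing the data. Alternatives were gap length, q, fragment number, gene kind and overlap.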

Additional observations from a re-analysis of the deposited data

Results flagged for a closer look

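Deserts of chromosome X lie outside the autosomal comparison but carry signal. Its 22 gaps of 1 Mb or more, 32.1 Mb in all, held 169 H2O2 + BHBNa peaks (5.26 per Mb, 4.5 to 6.12) and 95 H2O2 peaks (2.96 per Mb, 2.39 to 3.61). Desert density over that of the rest of the chromosome was 1.17 with H2O2 + BHBNa and 1.36 with H2O2. The ratio was again higher with H2O2, but 1.17 and 1.36 lay closer together than the autosomal 1.12 and 1.94. They were given no interval, and whether chromosome X repeats the autosomal difference between the lists was not tested.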

How the results depend on the processing

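Of 68 recomputed values, 33 stayed the same, 32 moved and 3 reversed. A reversal was a value on the other side of 1, whatever its interval. The H2O2 + BHBNa density ratio was 0.963 (0.846 to 1.1) at q of at most 0.05. It was 0.741 (0.454 to 1.21) when genes of any kind closed a gap, and both intervals held 1. The last reversal was the treatment ratio of deserts, 0.643 at 3 or more fragments, a cut that removed no H2O2 peak. With gaps of 0.5 Mb or more, the desert share was 30.3% with H2O2 + BHBNa and 41.4% with H2O2, the treatment ratio 1.34 and shared peaks 25 and 25. With gaps of 2 Mb or more these were 8.34%, 14%, 1.09, 3 and 3. At q of at most 0.05 the shares were 17.3% and 31.5%, the H2O2 density ratio 2.14, the treatment ratio 2.15 and shared peaks 0 and 0. At 3 or more fragments the H2O2 + BHBNa share was 22.1%, its density ratio 1.28, the part of its desert peaks with q of at most 0.05 24.6% (rest 32.6%) and shared peaks 7 and 7. With genes of any kind the shares were 0.149% and 0.204% and the H2O2 density ratio 1.01 (0.575 to 1.78), and why that ratio moved was not tested. Requiring 50% overlap left 6 and 6 shared peaks, and allowing ends within 1 kb gave 35 and 34. A q of at most 0.01 was met by 4.02% of desert peaks with H2O2 + BHBNa (rest 5.03%) and 1.97% with H2O2 (rest 2.41%). Over the 1000 lowest p of each list, chosen after seeing the data, the H2O2 share was 34.7% and its density ratio 2.42. The cause of these changes was not tested. No paired analysis was possible because each treatment had 1 IP library, which also left no replicate to omit. Depth was not given, so libraries could not be thinned to a common depth.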
